A study of Danio rerio with 12 samples.

Results

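Juvenile zebrafish ovaries at 30 days post fertilization (dpf) were compared with ovaries at 25 dpf. The samples were taken by the sex and age in their labels, 3 ovaries at 30 dpf and 2 ovaries at 25 dpf, which are 5 of the 12 gonads sequenced. The other 7 gonads are 3 testes at 30 dpf and 4 testes at 25 dpf. Every gonad, ovary or testis, came from the AB strain and carried the transgene Tg(piwil1-egfp-nos3UTR)ihb327Tg, which labels germ cells with green fluorescent protein. No group received a treatment, and no gonad without the transgene was among the samples. Each sample was 1 gonad, and its polyadenylated RNA was amplified as cDNA before sequencing. The labels do not state whether the gonads of a group came from separate fish or clutches, so p-values measure the spread between these samples. The count table names gonads by size, and big gonads were read as ovaries because the study describes juvenile wildtype gonads in that way and the numbers of columns match.

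In zebrafish, the early gonad holds germline stem cells, meiotic germ cells and young oocytes, and juveniles then develop as females or males. An oocyte arrests in meiotic prophase, enlarges inside a layer of follicle cells, and stores RNA and protein for the embryo. It also makes the zona pellucida proteins of the egg coat and packs mitochondria and germ plasm into the Balbiani body. In a whole gonad, fewer cells of a type and less RNA per cell cannot be told apart, so every value below is a level per library and not per cell.

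The total count was 4480957 to 4555409 in the 30 dpf ovaries and 5110156 and 5152576 in the 25 dpf ovaries. Levels are given as CPM, counts relative to the depth of each library, after TMM scaling, which corrects for differences in library composition, and 3 counts corresponded to 0.6945 to 0.8065 CPM in the 30 dpf ovaries and to 0.5932 and 0.6121 CPM in the 25 dpf ovaries. These floors cover counting error only. The egg coat genes summed to 7954 to 25720 CPM over the 5 ovaries, against at most 1463 CPM in any testis, so the ovary labels fitted the defining oocyte genes. The ovaries of 1 age were not alike. Across the 19292 genes tested, Spearman's rho was 0.9518 between 30 dpf ovaries 1 and 2, and 0.921 and 0.9304 between each of them and 30 dpf ovary 3. The 25 dpf ovary 2 had a rho of 0.9399 and 0.9425 with 30 dpf ovaries 1 and 2, and of 0.9362 with 25 dpf ovary 1. Thus 30 dpf ovary 3 stood apart from the other 30 dpf ovaries. The 25 dpf ovaries share a single rho, and of the pair ovary 1 was farther from every 30 dpf ovary, with a rho of 0.9025, 0.9147 and 0.9212. Some results are also given without 30 dpf ovary 3 or without 25 dpf ovary 1. Values given only once include both of these ovaries and may depend on them.

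To ask which genes differed between the ages, all 12 gonads were fitted in a model with a mean for each sex and age. No gene passed an adjusted p under 0.05 (edgeR quasi-likelihood test, Benjamini-Hochberg adjustment over 19292 genes), neither higher in the 30 dpf ovaries (0%) nor lower (0%), and the smallest adjusted p was 0.28. At an unadjusted p under 0.05, 1154 genes were higher (5.98% of the genes tested) and 1061 were lower (5.5%). With DESeq2, 120 of 10923 genes were called higher (1.1%) and 70 lower (0.641%), and with limma voom no gene was called higher (0%) and 1 lower (0.00518%), while 2326 genes with DESeq2 and 3381 with limma voom had an unadjusted p under 0.05. The gene that limma voom called lower, si:ch211-261i17.2, which is named because it was called and not by the rule for named genes, had 0 counts in every 30 dpf ovary, against 4.94 and 4.28 CPM in the 25 dpf ovaries. Of the DESeq2 calls, 188 of 190 were genes whose values at the 2 ages did not overlap. Over all tested genes the share was 15.5% on the higher side and 16.1% on the lower side. Calls and overlap come from the same counts, so their agreement is not separate evidence. Without 30 dpf ovary 3, a setting added after the data were seen, DESeq2 called 358 genes higher and 146 lower, and 158 of its 190 calls were among them.

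Genes whose 3 values at 30 dpf all lay above, or all below, both values at 25 dpf are called here genes that did not overlap. There were 2983 such genes on the higher side (15.5%) and 3108 on the lower side (16.1%). Counts of list members below are to be read against these shares and against the 5.98% and 5.5% at an unadjusted p under 0.05. The median log2 fold change of all tested genes, 30 dpf over 25 dpf ovaries, was 0.02, and with CPM without composition scaling it was -0.13. Fold changes below are on the TMM scale, as log2 with the standard error (SE).

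The 10 genes of smallest p that were higher in every 30 dpf ovary included LAMP2, PSAP, MGAT4B and CAT. LAMP2, a protein of the lysosomal membrane, was at 2444, 2027 and 1257 CPM in the 30 dpf ovaries, against 631.6 and 894.5 CPM in the 25 dpf ovaries (log2 fold change 1.32 ± 0.27). PSAP, the precursor of the saposins that help to break down lipids in lysosomes, was at 846.8, 850.9 and 626.0 CPM in the 30 dpf ovaries, against 311.8 and 464.0 CPM in the 25 dpf ovaries (1.00 ± 0.21). For both genes, 30 dpf ovary 3 was the lowest of its age and 25 dpf ovary 1 the lowest of all. The palmitoyl-protein thioesterase gene ppt2a.5 was at 51.9, 105.8 and 44.0 CPM in the 30 dpf ovaries, against 14.2 and 17.8 CPM in the 25 dpf ovaries (2.07 ± 0.37). Its name marks it as a member of a group of copies, between which reads may have been divided. MGAT4B, which adds branches to N-linked glycans, was at 32.0, 24.1 and 21.5 CPM in the 30 dpf ovaries, against 6.53 and 5.51 CPM in the 25 dpf ovaries (2.1 ± 0.40). CAT and zgc:162255 had little spread within either age. CAT, the catalase that breaks down hydrogen peroxide, was at 382.0, 371.0 and 342.8 CPM in the 30 dpf ovaries, against 208.8 and 194.9 CPM in the 25 dpf ovaries (0.86 ± 0.17). The other members of this group were cry-dash, a gene of the cryptochrome and photolyase family (1.02), the zinc finger gene ZNF395 (ENSDARG00000060113, 1.47), nt5dc2 (1.34), zgc:162255 (1.46) and the mitotic kinesin gene kif20a (0.90). All of these genes had an adjusted p of 0.28 with edgeR, whereas their adjusted p with DESeq2 lay under 0.05.

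**Figure D1:**
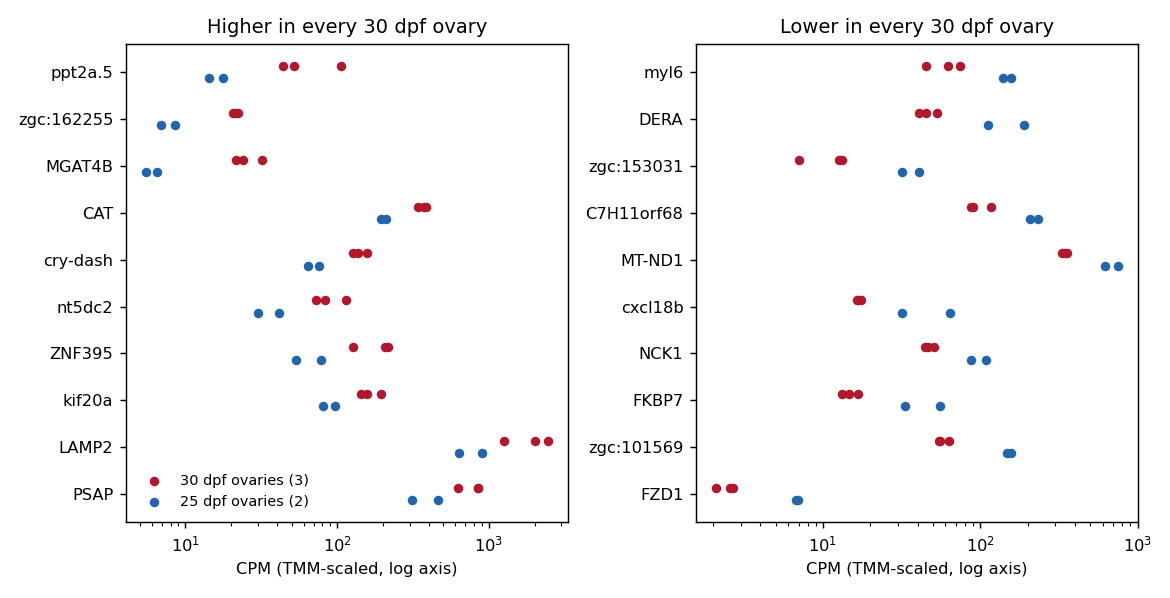
Level of the 10 genes of smallest p higher (left) and lower (right) in every 30 dpf ovary, in CPM after TMM scaling on a log axis, with 1 point per ovary, red for 30 dpf and blue for 25 dpf. The genes were chosen because the ages do not overlap, for example LAMP2 at 1257 CPM or more in the 30 dpf ovaries and at 894.5 CPM or less in the 25 dpf ovaries.

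The 10 genes of smallest p that were lower in every 30 dpf ovary included a myosin light chain, a mitochondrial transcript and a chemokine. myl6, a light chain of non-muscle and smooth muscle myosin, was at 45.2, 74.6 and 62.5 CPM in the 30 dpf ovaries, against 157.2 and 139.6 CPM in the 25 dpf ovaries (-1.29 ± 0.19). It was also lower in every 30 dpf testis than in every 25 dpf testis, but by little, with a log2 fold change of -0.14 in testes. DERA, an aldolase that breaks down deoxyribose phosphate, was at 45.4, 53.2 and 40.5 CPM in the 30 dpf ovaries, against 191.0 and 112.8 CPM in the 25 dpf ovaries (-1.71 ± 0.28). MT-ND1, a mitochondrially encoded subunit of respiratory complex I, was at 331.7, 347.7 and 357.0 CPM in the 30 dpf ovaries, against 749.5 and 621.5 CPM in the 25 dpf ovaries (-0.99 ± 0.18). The chemokine gene cxcl18b was at 16.7, 17.5 and 16.4 CPM in the 30 dpf ovaries, against 64.7 and 31.8 CPM in the 25 dpf ovaries (-1.51 ± 0.28). For DERA and cxcl18b the 25 dpf ovaries were themselves far apart, with ovary 1 the higher, and without it their log2 fold changes were -1.26 and -0.89. The rest were zgc:153031 (-1.73), C7H11orf68 (-1.17), the adaptor gene NCK1 (ENSDARG00000075369, -1.04), FKBP7, a prolyl isomerase of the endoplasmic reticulum (-1.58), zgc:101569 (-1.40) and the Wnt receptor gene FZD1 (-1.47). FZD1 was at only 2.69, 2.09 and 2.55 CPM in the 30 dpf ovaries, against 6.92 and 6.73 CPM in the 25 dpf ovaries. DESeq2 gave myl6 an adjusted p of 3.2e-05, the smallest of the genes named here, whereas edgeR gave it 0.28.

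Egg coat genes were higher on average at 30 dpf, and their level followed the individual ovary as well as the age. The 18 tested egg coat genes, which encode the zona pellucida proteins, summed to 25720, 24100 and 14950 CPM in the 30 dpf ovaries, against 7954 and 12510 CPM in the 25 dpf ovaries. All 18 had a log2 fold change above 0, with a median of 0.90 (1.13 without 30 dpf ovary 3 and 0.76 without 25 dpf ovary 1), and 12 of 18 did not overlap. However, only 1 of 18 had an unadjusted p under 0.05, namely zp2l2. Within the 30 dpf ovaries, ovary 3 had the lowest level of 17 of the 18 genes, and 25 dpf ovary 1 lay below 25 dpf ovary 2 for 18 of 18. zp3e was at 5405, 5146 and 3276 CPM in the 30 dpf ovaries, against 1698 and 2570 CPM in the 25 dpf ovaries. zp2.6 was at 442.5, 443.2 and 316.7 CPM in the 30 dpf ovaries, against 43.5 and 221.8 CPM in the 25 dpf ovaries. For zp2.6 the gap between the 25 dpf ovaries was larger than the gap between the nearest ovaries of different ages. zp2l2 was at 140.6, 123.3 and 87.7 CPM in the 30 dpf ovaries, against 42.3 and 82.0 CPM in the 25 dpf ovaries (0.91 ± 0.38, adjusted p = 0.41 with edgeR), so 30 dpf ovary 3 and 25 dpf ovary 2 were nearly level. The spread used in the test came from all 4 groups, and the same genes summed to 123.7 to 1463 CPM in the 30 dpf testes and to 97.5 to 1195 CPM in the 25 dpf testes. Many egg coat genes are close copies, and reads may have been divided between them.

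**Figure D2:**
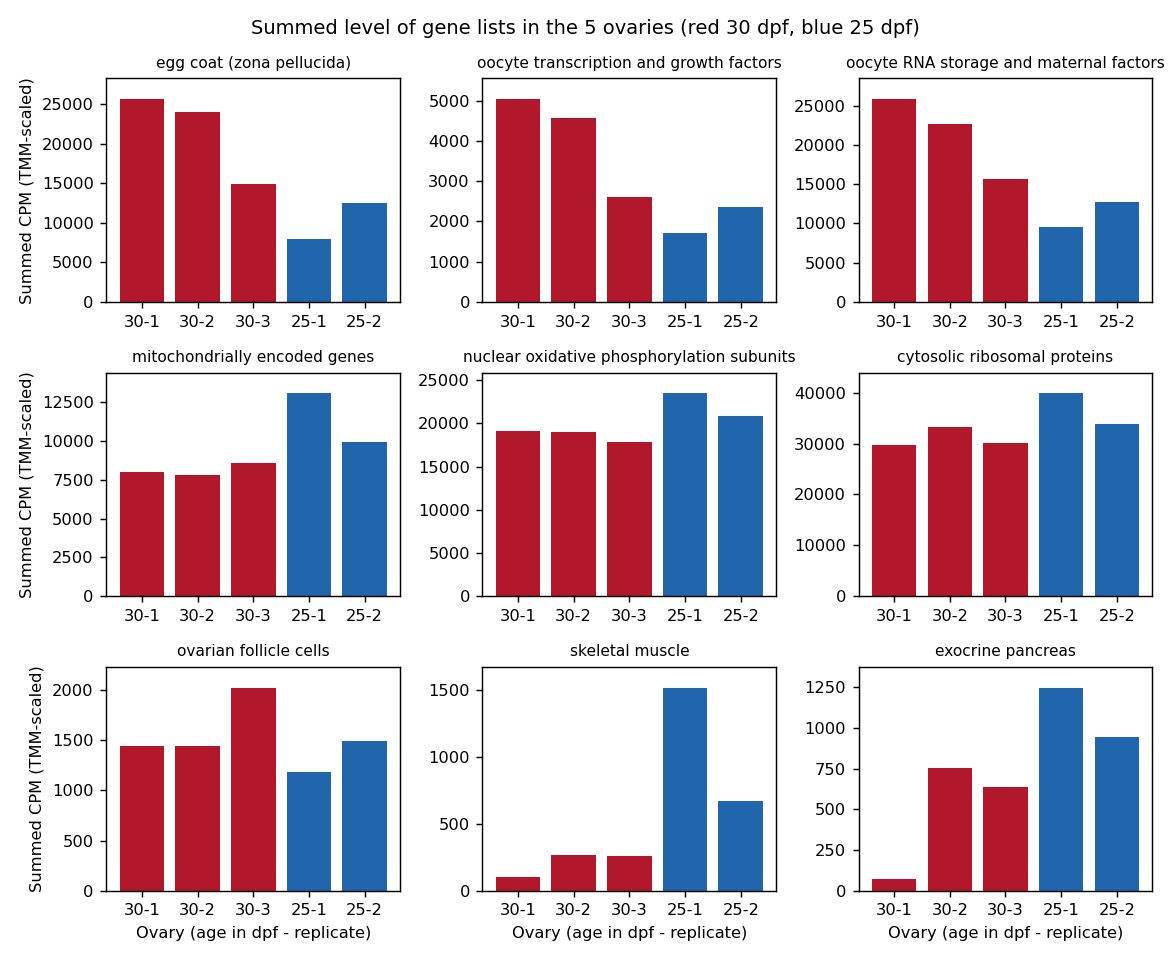
Summed CPM after TMM scaling of 9 gene lists in each ovary, as bars from 0, red for 30 dpf (ovaries 1 to 3) and blue for 25 dpf (ovaries 1 and 2). The 3 oocyte lists are highest in 30 dpf ovaries 1 and 2 and lowest in 25 dpf ovary 1, while skeletal muscle and mitochondrially encoded genes are highest in 25 dpf ovary 1, at 1521 and 13050 CPM.

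Oocyte transcription and growth factors followed the same order of ovaries. Their sum was 5050, 4571 and 2614 CPM in the 30 dpf ovaries, against 1710 and 2372 CPM in the 25 dpf ovaries, and all 15 tested members had a log2 fold change above 0 (median 0.89, 1.08 without 30 dpf ovary 3 and 0.69 without 25 dpf ovary 1). Of these, 7 of 15 did not overlap and 3 of 15 had an unadjusted p under 0.05. EOMES (ENSDARG00000006640), a T-box factor known from the embryo, was at 78.5, 80.6 and 35.9 CPM in the 30 dpf ovaries, against 22.5 and 26.5 CPM in the 25 dpf ovaries (1.40 ± 0.41). taf4b, a germ cell subunit of the general transcription machinery, was at 41.4, 35.6 and 41.9 CPM in the 30 dpf ovaries, against 18.4 and 17.1 CPM in the 25 dpf ovaries (1.16 ± 0.46). In contrast to most of the list, taf4b was as high in 30 dpf ovary 3 as in the other 30 dpf ovaries. nanog, a maternal factor that activates the embryonic genome, was at 1063, 850.6 and 442.1 CPM in the 30 dpf ovaries, against 224.0 and 410.7 CPM in the 25 dpf ovaries (1.31 ± 0.61). sox19b, which acts with nanog, was at 704.1, 673.9 and 172.7 CPM in the 30 dpf ovaries, against 106.0 and 235.5 CPM in the 25 dpf ovaries, so that the ages overlapped. GDF9, a growth factor that oocytes send to follicle cells, was at 112.1, 88.2 and 69.2 CPM in the 30 dpf ovaries, against 43.7 and 63.5 CPM in the 25 dpf ovaries. Its partner bmp15 overlapped, at 87.6, 72.3 and 32.6 CPM in the 30 dpf ovaries, against 25.3 and 44.1 CPM in the 25 dpf ovaries. figla, an oocyte transcription factor that activates egg coat genes in mammals, overlapped as well, since 30 dpf ovary 3 had only 22.2 CPM, against 77.3 and 148.7 CPM in the 25 dpf ovaries.

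Genes for RNA storage and maternal factors of the egg summed to 25860, 22590 and 15690 CPM in the 30 dpf ovaries, against 9508 and 12660 CPM in the 25 dpf ovaries. Among the 28 tested members, 22 had a log2 fold change above 0 (median 0.53), 11 did not overlap on the higher side and 1 on the lower side, and 4 were higher and 1 lower at an unadjusted p under 0.05. RBPMS2 (ENSDARG00000079578), whose products bind Bucky ball in the Balbiani body, was at 811.6, 671.8 and 425.9 CPM in the 30 dpf ovaries, against 243.8 and 374.4 CPM in the 25 dpf ovaries (1.04 ± 0.38). buc, which encodes Bucky ball itself, was at 2179, 1797 and 1385 CPM in the 30 dpf ovaries, against 922.1 and 1190 CPM in the 25 dpf ovaries (0.76 ± 0.46). The same order held for CPEB1, a regulator of stored mRNA, at 2675, 2291 and 1431 CPM in the 30 dpf ovaries, against 565.8 and 1207 CPM in the 25 dpf ovaries. ZAR1, which binds and stabilizes maternal RNA, was at 3152, 3055 and 2330 CPM in the 30 dpf ovaries, against 1302 and 1631 CPM in the 25 dpf ovaries. The member that did not overlap on the lower side was cpeb4b, with a log2 fold change of -0.32. The member lower at an unadjusted p under 0.05 was WEE2, a kinase that keeps oocytes arrested in mammals, and its difference rested on 1 library. It was at 9.14, 11.5 and 3.01 CPM in the 30 dpf ovaries, against 7.12 and 77.9 CPM in the 25 dpf ovaries (-2.43 ± 1.07), so that the ages overlapped, and without 25 dpf ovary 2 its log2 fold change was 0.16.

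Mitotic cyclins and their regulators were higher in the 30 dpf ovaries, while the cyclin genes CCND1 and CCND2 were lower. The 35 tested cell cycle genes had a median log2 fold change of 0.22, which was 0.07 without composition scaling, 7 were higher and 2 lower at an unadjusted p under 0.05, and 11 did not overlap on the higher side and 4 on the lower side. CCNB1, the cyclin that with CDK1 drives entry into division and oocyte maturation, was at 2838, 1893 and 1157 CPM in the 30 dpf ovaries, against 348.8 and 764.5 CPM in the 25 dpf ovaries (1.82 ± 0.45, adjusted p = 0.31 with edgeR and 0.0084 with DESeq2). CCNB2 was at 974.5, 658.2 and 389.1 CPM in the 30 dpf ovaries, against 141.2 and 343.2 CPM in the 25 dpf ovaries (1.48 ± 0.46). Both B-type cyclins had the order of ovaries seen for the egg coat genes, with 30 dpf ovary 3 nearest to 25 dpf ovary 2. CCNA2, a cyclin of the S and G2 phases, was at 835.5, 565.5 and 368.5 CPM in the 30 dpf ovaries, against 178.8 and 328.5 CPM in the 25 dpf ovaries (1.22 ± 0.34). CDC20, an activator of the anaphase-promoting complex, was at 456.7, 336.2 and 206.5 CPM in the 30 dpf ovaries, against 114.1 and 200.4 CPM in the 25 dpf ovaries (1.08 ± 0.33). The spindle kinase gene aurka had a log2 fold change of 1.01, the spindle checkpoint gene bub1ba of 0.58 and CDK1 of 0.60. CCND1, a cyclin of the G1 phase, was at 27.96, 28.5 and 37.3 CPM in the 30 dpf ovaries, against 73.6 and 52.0 CPM in the 25 dpf ovaries (-1.01 ± 0.31). CCND2 (ENSDARG00000051748) also lay lower, with a log2 fold change of -0.77, whereas ccnd3 overlapped, with a log2 fold change of 0.01. CCNB1 and CCNB2 are counted in the list of stored RNAs above as well.

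**Figure D3:**
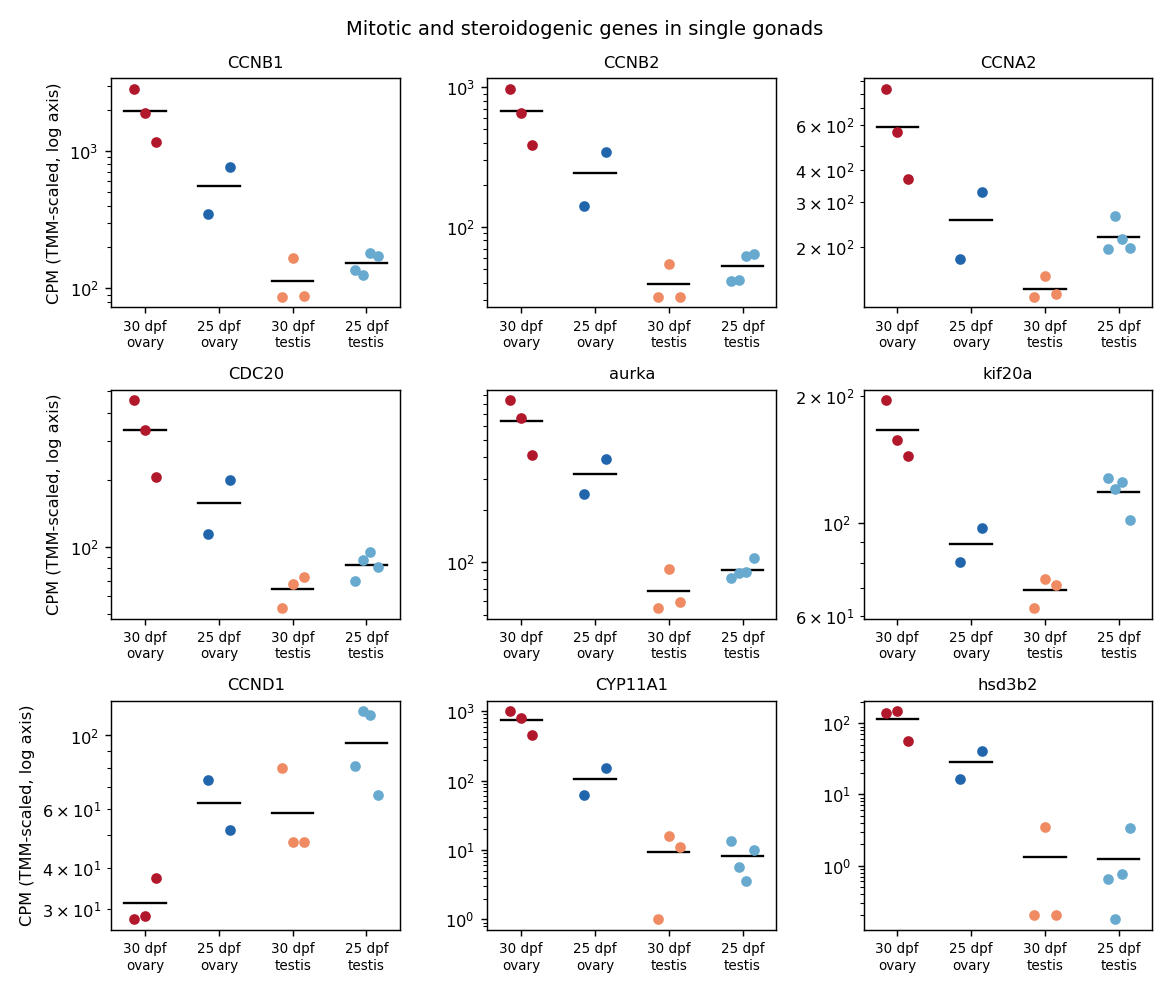
CPM after TMM scaling, on a log axis, of 7 cell cycle genes and 2 steroidogenic genes in single gonads, with 1 point per gonad and a line at the group mean, for 30 dpf ovaries (3), 25 dpf ovaries (2), 30 dpf testes (3) and 25 dpf testes (4). CCNB1 lies at 1157 CPM or more in the 30 dpf ovaries and at 764.5 CPM or less in the 25 dpf ovaries, and kif20a differs in opposite directions in ovaries and testes.

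Of the steroid synthesis genes, CYP11A1 stood out by its higher level in the 30 dpf ovaries. CYP11A1 (ENSDARG00000002347), which makes pregnenolone from cholesterol, was at 1001, 801.1 and 456.0 CPM in the 30 dpf ovaries, against 61.5 and 149.8 CPM in the 25 dpf ovaries. Its log2 fold change of 2.83 ± 0.84 was the largest of the list, with an adjusted p of 0.31 with edgeR and 0.017 with DESeq2, and its groups did not overlap. The second gene annotated as CYP11A1 (ENSDARG00000092696) was at 29.3, 13.1 and 21.8 CPM in the 30 dpf ovaries, against 21.4 and 13.1 CPM in the 25 dpf ovaries. The products of CYP11A1 are substrates of 3-beta-hydroxysteroid dehydrogenase, and its gene hsd3b2 was at 137.4, 148.2 and 57.0 CPM in the 30 dpf ovaries, against 16.6 and 40.4 CPM in the 25 dpf ovaries (2.0 ± 0.92). For both genes 25 dpf ovary 1 was the lowest and 30 dpf ovary 3 the lowest of its age, and no overlap was seen. CYP17A1, an enzyme of androgen synthesis, overlapped, at 184.4, 106.8 and 70.8 CPM in the 30 dpf ovaries, against 124.2 and 186.5 CPM in the 25 dpf ovaries. CYP19A1, the aromatase that makes oestrogen, overlapped, at 8.33, 10.7 and 49.8 CPM in the 30 dpf ovaries, against 17.4 and 33.9 CPM in the 25 dpf ovaries. For the aromatase, 30 dpf ovary 3 was the highest of all ovaries, unlike for CYP11A1 and hsd3b2. SRD5A2 (ENSDARG00000043587), a steroid 5-alpha-reductase, had a log2 fold change of -0.78, and its 12.4, 12.8 and 11.3 CPM in the 30 dpf ovaries came close to the 14.1 CPM of 25 dpf ovary 2. Over the 19 tested members the median was 0.69, 4 did not overlap on the higher side and 2 on the lower side, and 1 in each direction had an unadjusted p under 0.05.

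Follicle cell genes showed no shift of the whole list with age. Their sum was 1445, 1440 and 2024 CPM in the 30 dpf ovaries, against 1188 and 1492 CPM in the 25 dpf ovaries, and of 32 tested members 2 did not overlap on the higher side and 3 on the lower side, with none at an unadjusted p under 0.05. The median log2 fold change was 0.00 and its sign depended on the setting. gsdf, a growth factor of supporting cells in fish, was at 735.5, 633.3 and 1001 CPM in the 30 dpf ovaries, against 398.7 and 624.6 CPM in the 25 dpf ovaries (0.63 ± 0.59). A FOXL2 gene (ENSDARG00000042180), a factor of ovarian somatic identity, was near the floor in 3 ovaries and not in the others. It was at 0.54, 0.26 and 69.7 CPM in the 30 dpf ovaries, against 35.4 and 0.20 CPM in the 25 dpf ovaries. In the testes this gene was at 62.6, 2.27 and 2.22 CPM at 30 dpf, and at 60.4, 114.9, 47.9 and 66.2 CPM at 25 dpf. Its highest level in any gonad was thus in a 25 dpf testis. The other FOXL2 gene (ENSDARG00000068417) was at 61.3, 68.6 and 43.1 CPM in the 30 dpf ovaries, against 13.4 and 83.0 CPM in the 25 dpf ovaries. Thus both genes differed more between ovaries of 1 age than between the ages.

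Germ cell genes outside the oocyte lists had smaller differences, and their sums did not follow the order of ovaries seen for the egg coat. The 17 genes of germline stem and progenitor cells summed to 6920, 6118 and 6699 CPM in the 30 dpf ovaries, against 4657 and 5095 CPM in the 25 dpf ovaries. The 16 tested had a median log2 fold change of 0.41, with 4 members higher and none lower at an unadjusted p under 0.05. These 4 were PIWIL1, PIWIL2, TDRD6 and NANOS3, of which PIWIL1, PIWIL2 and TDRD6 are counted in the next list as well. Of the 16, 6 did not overlap on the higher side and 2 on the lower side. The 22 genes of the piRNA pathway and the germ granules summed to 9962, 8799 and 9323 CPM in the 30 dpf ovaries, against 6892 and 7043 CPM in the 25 dpf ovaries. Their median was 0.22, and 0.07 without composition scaling, with 5 members higher and none lower at an unadjusted p under 0.05 and 7 that did not overlap, all higher. PIWIL1, the Argonaute protein that carries piRNAs in zebrafish germ cells, was at 2877, 2507 and 2812 CPM in the 30 dpf ovaries, against 1875 and 1875 CPM in the 25 dpf ovaries (0.54 ± 0.13, adjusted p = 0.30 with edgeR and 0.0035 with DESeq2). The ovaries of each age lay close together for this gene, and 30 dpf ovary 3 was as high as the others. PIWIL2, its partner in the amplification of piRNAs, was at 791.4, 741.7 and 995.9 CPM in the 30 dpf ovaries, against 590.7 and 683.1 CPM in the 25 dpf ovaries (0.40 ± 0.17). Among the Tudor domain genes of the list, TDRD6, tdrd7a and TDRD9 were higher at an unadjusted p under 0.05, while TDRD1, tdrd5, rnf17, TDRD7, tdrd12 and tdrd15 overlapped. tdrd7a was at 539.5, 532.8 and 589.4 CPM in the 30 dpf ovaries, against 290.5 and 380.9 CPM in the 25 dpf ovaries (0.72 ± 0.23). TDRD6 was at 558.6, 535.9 and 513.0 CPM in the 30 dpf ovaries, against 256.3 and 372.4 CPM in the 25 dpf ovaries (0.77 ± 0.26). DDX4, the Vasa helicase found in all germ cells, overlapped, at 777.5, 569.9 and 808.6 CPM in the 30 dpf ovaries, against 473.8 and 599.3 CPM in the 25 dpf ovaries. NANOS3, a repressor of translation needed to keep the female germline, was at 93.6, 75.1 and 44.0 CPM in the 30 dpf ovaries, against 27.5 and 38.0 CPM in the 25 dpf ovaries (1.11 ± 0.48). PIWIL1, PIWIL2, TDRD6 and DDX4 are members of both lists, so the counts of the lists are not separate. The transgene's name includes piwil1 and the nos3 untranslated region, and whether its reads were counted on PIWIL1 or NANOS3 was not tested.

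Meiotic genes did not shift as a list. The 35 tested genes of meiotic prophase summed to 1474, 1809 and 2300 CPM in the 30 dpf ovaries, against 1967 and 1800 CPM in the 25 dpf ovaries, with a median of -0.05 whose sign depended on the setting. SYCP3, of the synaptonemal complex that joins paired chromosomes, was at 21.8, 44.2 and 123.8 CPM in the 30 dpf ovaries, against 97.7 and 48.1 CPM in the 25 dpf ovaries. For SYCP3, 30 dpf ovary 3 and 25 dpf ovary 1 were each the highest of their age. Over the list, 30 dpf ovary 3 had the highest level of its age for 27 of the 35 genes. In contrast, 25 dpf ovary 1 was the highest of all ovaries for 10 of the genes and the lowest for 7. YTHDC2, an RNA helicase that germ cells need to enter meiosis in mice, was at 46.8, 38.0 and 60.7 CPM in the 30 dpf ovaries, against 25.1 and 34.5 CPM in the 25 dpf ovaries (0.70 ± 0.24).

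Transcripts of the mitochondrial genome were lower in the 30 dpf ovaries. All 13 mitochondrially encoded protein genes had a log2 fold change under 0 (median -0.72), 11 of 13 did not overlap and 10 of 13 had an unadjusted p under 0.05, and DESeq2 called 2 of them lower. Their sum was 8009, 7780 and 8538 CPM in the 30 dpf ovaries, against 13050 and 9928 CPM in the 25 dpf ovaries. Each of the 13 was highest in 25 dpf ovary 1, and without this ovary the median was -0.57. Besides MT-ND1, given above, MT-ND2, also of complex I, was at 321.8, 319.7 and 394.0 CPM in the 30 dpf ovaries, against 799.3 and 686.6 CPM in the 25 dpf ovaries (-1.11 ± 0.23). The genes of cytochrome c oxidase showed the smallest differences. MT-CO1 overlapped, at 2014, 1677 and 2087 CPM in the 30 dpf ovaries, against 2821 and 1741 CPM in the 25 dpf ovaries (-0.24 ± 0.21). MT-CO2 had a log2 fold change of -0.22, and without 25 dpf ovary 1 the log2 fold change was 0.17 for MT-CO1 and 0.05 for MT-CO2. In the testes the median over the 13 genes was 0.04. The 13 genes share 1 genome, so they are not independent of each other.

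**Figure D4:**
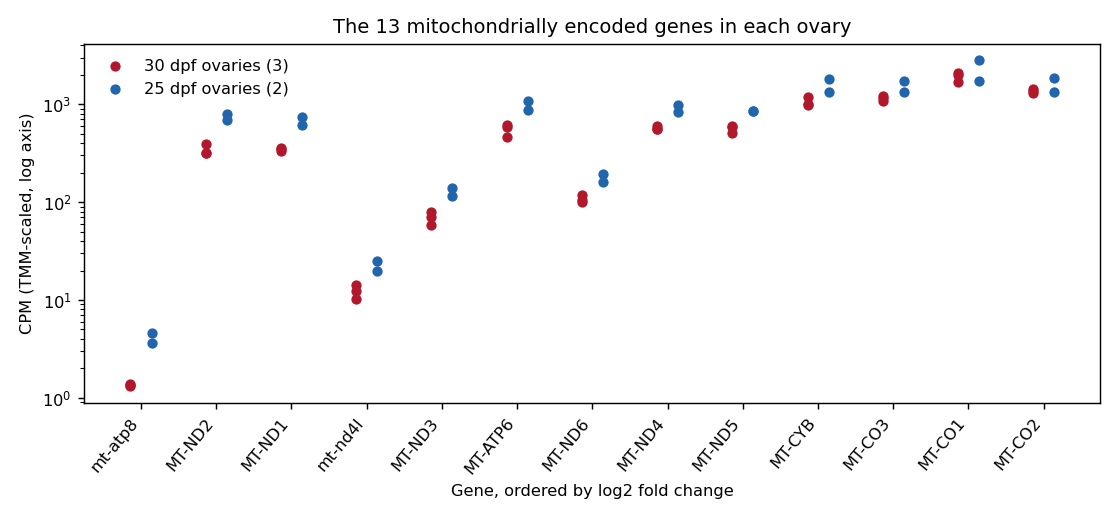
CPM after TMM scaling, on a log axis, of the 13 mitochondrially encoded protein genes, with 1 point per ovary, red for 30 dpf and blue for 25 dpf, ordered from the lowest log2 fold change. For MT-ND2 the 30 dpf ovaries lie at 394.0 CPM or less and the 25 dpf ovaries at 686.6 CPM or more, while the 2 ages overlap for MT-CO1 toward the right.

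Nuclear genes for oxidative phosphorylation lay lower as well, with smaller differences. Of the 95 tested genes of this list, 11 had a log2 fold change above 0, and 63 did not overlap on the lower side and none on the higher side. At an unadjusted p under 0.05, 39 were lower and none higher, and DESeq2 called 4 of the 95 lower. The median of the 95 was -0.49, and 76 of them were highest in 25 dpf ovary 1. All 99 genes of the list, tested or not, summed to 19080, 19010 and 17860 CPM in the 30 dpf ovaries, against 23490 and 20870 CPM in the 25 dpf ovaries. By complex, the median was -0.55 over 37 genes of complex I, -0.32 over 9 of complex II, -0.45 over 8 of complex III, -0.54 over 21 of complex IV and -0.44 over 20 of the ATP synthase. Genes were assigned to a complex by the start of their symbol, and whether each encodes a subunit was not checked. The summed ATP synthase genes overlapped between the ages. Their sum was 9754, 9527 and 8681 CPM in the 30 dpf ovaries, against 10290 and 9520 CPM in the 25 dpf ovaries. ATP5PF, a subunit of the ATP synthase, was at 65.9, 81.2 and 74.1 CPM in the 30 dpf ovaries, against 135.5 and 120.4 CPM in the 25 dpf ovaries (-0.80 ± 0.18). ndufa5, of complex I, was at 43.6, 52.9 and 51.9 CPM in the 30 dpf ovaries, against 108.0 and 76.1 CPM in the 25 dpf ovaries (-0.90 ± 0.21). atp5if1b, which is counted in this list, encodes a factor that inhibits the ATP synthase and not a subunit. It was at 11.3, 17.5 and 17.1 CPM in the 30 dpf ovaries, against 40.9 and 37.1 CPM in the 25 dpf ovaries (-1.35 ± 0.26). For these 3 genes the ages were well apart, whereas the list median moved to -0.26 without 25 dpf ovary 1. In the testes the median was -0.29.

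Ribosomal protein genes shared the direction. The 91 tested genes of the cytosolic ribosome had a median of -0.36, 53 did not overlap on the lower side and 2 on the higher side, and 30 were lower and none higher at an unadjusted p under 0.05. All 95 genes of the list, tested or not, summed to 29760, 33310 and 30140 CPM in the 30 dpf ovaries, against 39880 and 33780 CPM in the 25 dpf ovaries. By this sum, only 25 dpf ovary 1 was clearly above the rest. The median was -0.17 without that ovary and -0.21 in the testes. RPL38 of the large subunit was at 46.8, 51.6 and 48.2 CPM in the 30 dpf ovaries, against 94.3 and 71.2 CPM in the 25 dpf ovaries (-0.76 ± 0.25).

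Genes that shape, copy and remove mitochondria did not shift together. Their 30 tested members had a median of 0.02 whose sign depended on the setting. At an unadjusted p under 0.05, 1 was higher and 4 lower, and 3 did not overlap on the higher side and 8 on the lower side. The counts thus leaned to the lower side, while the median did not. NRF1, a transcription factor that activates nuclear genes for mitochondrial proteins, was at 178.0, 143.5 and 97.2 CPM in the 30 dpf ovaries, against 50.2 and 82.6 CPM in the 25 dpf ovaries (1.07 ± 0.29). TFAM, which packs and transcribes mitochondrial DNA, was at 33.1, 50.3 and 53.01 CPM in the 30 dpf ovaries, against 90.2 and 64.9 CPM in the 25 dpf ovaries (-0.77 ± 0.24). The factor and the packing protein thus lay in opposite directions, and neither overlapped between the ages. The mitochondrial transcription factor gene tfb2m (-0.71), FUNDC1, a receptor for the removal of mitochondria (-0.78), and FIS1, of mitochondrial fission (-0.66), were on the lower side as well. pld6, the mitochondrial phospholipase on which the study centred, overlapped, at 160.2, 267.3 and 253.7 CPM in the 30 dpf ovaries, against 285.7 and 231.6 CPM in the 25 dpf ovaries (-0.19 ± 0.25). The list of genes followed by the study had 22 tested members, picked in part from these same gonads. It included GK5 and both genes annotated as TPI1, so it is not the set of 22 genes that the study's screens shared. None of the members had an unadjusted p under 0.05, 2 did not overlap on the higher side and 1 on the lower side.

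**Figure D5:**
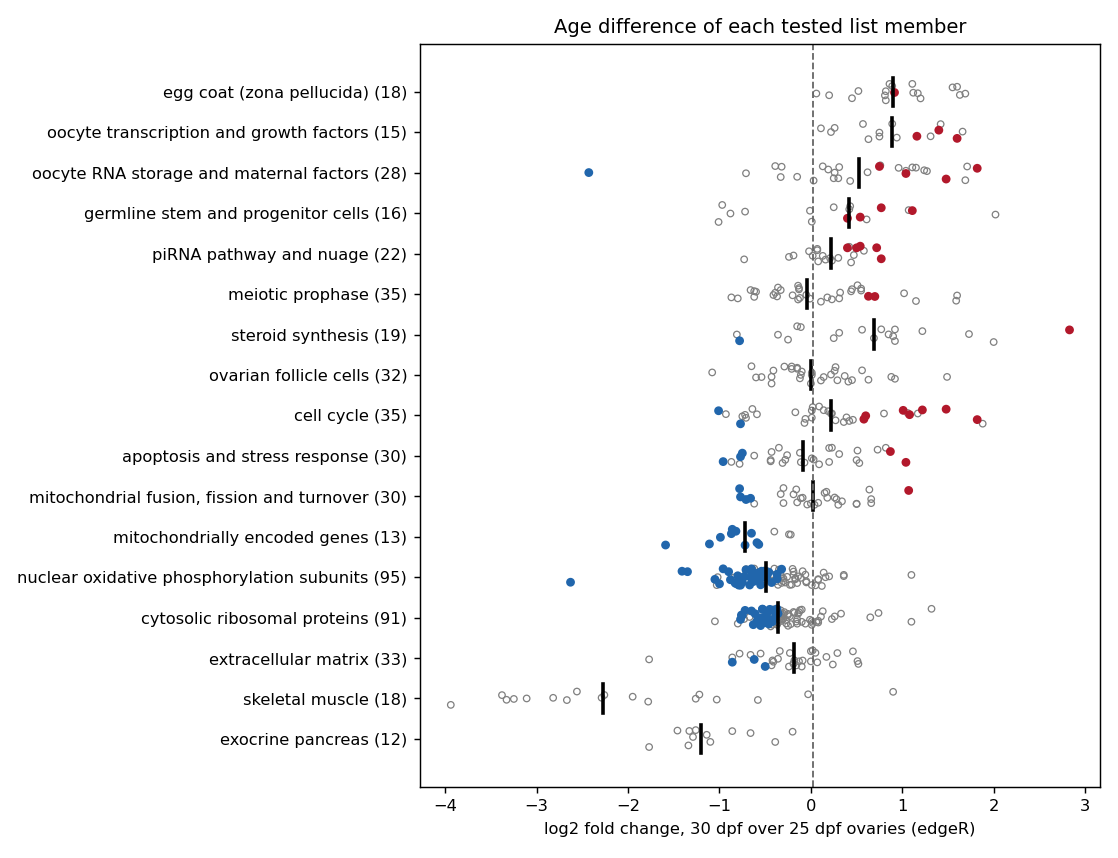
Log2 fold change, 30 dpf over 25 dpf ovaries, of each tested member of 17 gene lists (number of members in brackets), with 1 point per gene, filled red where higher and blue where lower at an unadjusted p under 0.05, open otherwise. The bars are list medians, such as 0.90 for the egg coat and -0.72 for mitochondrially encoded genes, and the dashed line is the median of all tested genes at 0.02.

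Genes of cell death, matrix and early response were mixed. Among 30 tested genes of apoptosis and the stress response, 2 were higher and 3 lower at an unadjusted p under 0.05. APAF1, which assembles the apoptosome, was at 79.0, 66.8 and 55.8 CPM in the 30 dpf ovaries, against 25.1 and 48.2 CPM in the 25 dpf ovaries (0.87 ± 0.32). GADD45A (ENSDARG00000104571), a stress response gene, was at 7.80, 7.85 and 9.95 CPM in the 30 dpf ovaries, against 14.8 and 18.6 CPM in the 25 dpf ovaries (-0.96 ± 0.28). Neither gene overlapped between the ages. Of 33 tested genes of the extracellular matrix, 3 were lower and none higher at an unadjusted p under 0.05. COL1A2, a chain of type I collagen, was at 542.0, 537.0 and 716.2 CPM in the 30 dpf ovaries, against 1056 and 786.2 CPM in the 25 dpf ovaries (-0.62 ± 0.24). SPARC, a matrix protein of collagen-rich tissue, was at 551.9, 590.1 and 627.6 CPM in the 30 dpf ovaries, against 858.0 and 812.5 CPM in the 25 dpf ovaries (-0.50 ± 0.16). Of 22 tested immediate early and heat shock genes, which respond to the handling of tissue, 1 was higher, BTG2 (1.1), and 2 were lower, JUN (-0.73) and ier2b (-1.35). JUN was at 236.3 CPM in 25 dpf ovary 1, but at 139.2 CPM in 25 dpf ovary 2, close to the 132.2 CPM of 30 dpf ovary 3. Without 25 dpf ovary 1 its log2 fold change was -0.27. The medians of these 3 lists changed sign in at least 1 of the settings tried.

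Transcripts of neighbouring tissues were present, and the sums over muscle and pancreas genes were lower in the 30 dpf ovaries. The 18 skeletal muscle genes summed to 106.2, 270.4 and 259.3 CPM in the 30 dpf ovaries, against 1521 and 669.0 CPM in the 25 dpf ovaries, 14 of 18 did not overlap on the lower side, and their median was -2.28, or -1.51 without 25 dpf ovary 1. All 18 had counts in every ovary, and none had an unadjusted p under 0.05. The spread in that test includes the 25 dpf testes, whose sums ranged over 623.5 to 67220 CPM. The 12 exocrine pancreas genes summed to 75.3, 753.5 and 638.7 CPM in the 30 dpf ovaries, against 1247 and 942.2 CPM in the 25 dpf ovaries, with 8 of 12 that did not overlap, all lower, none with an unadjusted p under 0.05, and a median of -1.20. The pancreas median was -0.68 without 30 dpf ovary 1, which was far below the other ovaries. Liver genes summed to 39.8, 264.7 and 247.7 CPM in the 30 dpf ovaries, against 244.2 and 376.7 CPM in the 25 dpf ovaries. Muscle is rich in mitochondria, and 25 dpf ovary 1 was the highest ovary for the summed muscle, pancreas, mitochondrial, respiratory chain and ribosomal genes alike. The part of other tissues in those lists, and in myl6, COL1A2 and SPARC, was not tested. Smooth muscle and stroma genes summed to 586.3, 630.2 and 1067 CPM in the 30 dpf ovaries, against 1017 and 1205 CPM in the 25 dpf ovaries, with 3 of 13 lower at an unadjusted p under 0.05. For blood vessels, EGFL7, a factor made by endothelial cells, was at 9.14, 12.04 and 9.03 CPM in the 30 dpf ovaries, against 34.2 and 20.4 CPM in the 25 dpf ovaries (-1.44 ± 0.28, adjusted p = 0.28 with edgeR and 0.0061 with DESeq2). Of 20 tested leukocyte genes, 2 were higher and none lower at an unadjusted p under 0.05. The macrophage receptor gene marco (0.79) was also higher in every 30 dpf testis than in every 25 dpf testis (1.23). The other, MFAP4 (ENSDARG00000088745, 3.07), had only 3 and 6 counts in the 25 dpf ovaries. Testis and spermatid genes had 1 of 19 lower, TEKT1 (-1.87), at 1.61, 2.36 and 3.01 CPM in the 30 dpf ovaries, against 11.9 and 5.31 CPM in the 25 dpf ovaries.

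To ask whether an age difference was particular to ovaries, the difference between 30 and 25 dpf was compared between ovaries and testes. No gene passed an adjusted p under 0.05 with edgeR (0%), and the smallest adjusted p was 0.067. At an unadjusted p under 0.05 there were 1952 genes (10.1%), and DESeq2 called 89 genes and limma voom none. For CCNB1 the log2 fold change was 1.82 in ovaries, against -0.43 in testes, and for CYP11A1 (ENSDARG00000002347) it was 2.83 in ovaries, against 0.18 in testes, with an adjusted p of 0.39 and 0.44 for the difference with edgeR. In contrast, ZNF395 (1.12), nt5dc2 (1.15) and PSAP (0.90) were higher in every 30 dpf testis than in every 25 dpf testis too. With edgeR, no gene was thus called as differing by age in ovaries other than it did in testes.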

How the data were processed

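RNA-seq counts of 12 single zebrafish gonads were used. The authors aligned reads with HISAT2 2.0.5 (study methods), sorted them with SAMtools 1.5, removed duplicated reads with Picard, and counted reads on exons with HTSeq 0.9.1 in its reverse-stranded mode, so the deposited values are whole-number counts per gene without normalization. The submitters' processing notes name the build GRCz11. The sources used here name no molecular identifiers, and then the removal of duplicates could lower the counts of abundant short genes, and gene counts alone do not show whether the libraries kept strand. Symbols were taken from a table of gene identifiers, which matched 29201 of 32520 identifiers. Symbols in capitals are those of human orthologues as that table gives them and can be shared by zebrafish copies, which are then named with their identifier. No gene coordinates are given because the table's assembly is not that of the files.

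In R 4.3.3 with edgeR 4.0.16, filterByExpr on the 4 groups kept 19292 of the 28113 genes with a count. TMM-scaled counts of all 12 gonads were fitted by the quasi-likelihood method with a mean per sex and age, because there are only 2 ovaries at 25 dpf. The Benjamini-Hochberg adjustment ran over all tested genes with a threshold of 0.05. The fold change divided by the square root of F gave the standard error. Alternatives were DESeq2 1.42.0, limma 3.58.1 (voom with sample weights), other normalizations and filters, ovaries only, robust dispersion, a replicate block and each gonad left out. The scripts were tested on simulated data. Results on some genes are not reported here. Genes to name were drawn from the 10 genes of smallest p in each direction whose ages did not overlap and the 10 of smallest adjusted p with DESeq2. Also drawn on were up to 4 genes of smallest p for each gene list, the cell type markers and the genes followed by the study. Not every gene of these groups is named. Other members are given beside the named genes to show a list's range. Sums over a list include its members that were not tested, whereas sums by complex do not. The comparison and the gene lists were chosen with earlier results of these data known, so lists are described by counts and medians and received no test.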

Additional observations from a re-analysis of the deposited data

Results flagged for a closer look

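For 6 of the genes named by the rule or in the text, the ages did not overlap in ovaries or in testes. The 30 dpf ovaries lay on one side of those at 25 dpf, and the 30 dpf testes on the opposite side. How many of all tested genes did so was not counted, so whether 6 is many cannot be told. Some of these genes, such as kif20a and C7H11orf68, were named because their ages did not overlap in ovaries. The difference between the age difference in ovaries and that in testes, on the log2 scale, was 1.68 for kif20a, 1.89 for CCNA2 and 0.99 for bub1ba, which were higher at 30 dpf in ovaries and lower at 30 dpf in testes. It was -1.49 for C7H11orf68, -1.2 for COL1A2 and -1.12 for tek, an endothelial receptor gene, which were lower at 30 dpf in ovaries and higher at 30 dpf in testes. kif20a averaged 69.0 CPM in the 30 dpf testes and 118.5 CPM in the 25 dpf testes. None of these 6 differences passed the adjusted threshold with edgeR, where the adjusted p was 0.12 for kif20a, 0.41 for tek and 0.39 for each of the other 4, so a difference between the sexes was not called for them.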

How the results depend on the processing

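The call of 0 genes in either direction held under other normalizations and filters, in ovaries alone and with robust dispersion. With DESeq2, 120 genes were higher and 70 lower and 89 differed between the sexes, and limma voom called 1 lower. Leaving out 1 gonad at a time gave 0 to 2 genes higher, 0 to 1 lower and 0 to 5 between the sexes, the upper ends without 25 dpf ovary 2. Between the sexes, 1 gene differed with robust dispersion, 1 with no filter and 1 with a minimum of 10 counts in each gonad. Chosen after seeing the data, the leaving out of 30 dpf ovary 3 gave 358 higher and 146 lower with DESeq2 (261 between the sexes) and 330 higher and 104 lower with limma voom, of which 319 calls were shared. The cause was not tested. When 1 gonad was left out, the log2 fold change ranged over -3.28 to 0.16 for WEE2, -0.33 to 0.0 for pld6, -0.53 to 0.17 for MT-CO1 and -0.41 to 0.05 for MT-CO2. No other of the 72 genes checked changed sign, but the 72 did not include every gene named in the text. Among the genes left out of this check, some changed sign when 1 ovary was left out. The range was -0.36 to 0.34 for ccnd3, -0.95 to 5.69 for TDRD1, -2.59 to 5.6 for ZAR1L and -5.42 to 6.71 for FOXL2 (ENSDARG00000042180). With the replicate block, 0 genes were called in each comparison. Numbers pair different animals, and the deviations of equal numbers correlated at -0.227 and 0.0875. Medians of 11 lists changed sign in at least 1 setting. Levels at or under 3 counts cannot be told from 0 at this depth.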

Other observations

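Some genes differed far more between ovaries of 1 age than most, at both ages. By a rule set after the values were seen, at least 20 CPM in the higher ovary and more than 20-fold apart within each age, there were 18 such genes, 17 of them with a symbol. TDRD1, a Tudor domain gene of the piRNA pathway, was at 881.5, 261.0 and 8.33 CPM in the 30 dpf ovaries, against 504.5 and 7.55 CPM in the 25 dpf ovaries. cldnd was at 9.14, 1849 and 1718 CPM in the 30 dpf ovaries, against 724.7 and 3.06 CPM in the 25 dpf ovaries. ZAR1L, related to the maternal RNA-binding gene ZAR1, was at 5.65, 5.76 and 196.5 CPM in the 30 dpf ovaries, against 66.2 and 1.43 CPM in the 25 dpf ovaries. The ovaries at the low end differed from gene to gene.

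The 2 genes annotated as RRM2, the small subunit of ribonucleotide reductase, differed between ovaries in opposite ways. ENSDARG00000078069 was at 1651, 907.4 and 61.3 CPM in the 30 dpf ovaries, against 350.2 and 956.1 CPM in the 25 dpf ovaries. ENSDARG00000020711 was at 32.5, 1167 and 1274 CPM in the 30 dpf ovaries, against 425.5 and 23.3 CPM in the 25 dpf ovaries. The division of reads between these copies was not tested.

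An identifier without a symbol, ENSDARG00000117502, was at 94.4, 82.7 and 1.39 CPM in the 30 dpf ovaries, against 1.58 and 2.65 CPM in the 25 dpf ovaries, so that it separated 30 dpf ovaries 1 and 2 from the other 3 ovaries rather than the ages. ENSDARG00000116076 was at 65.1, 70.16 and 84.0 CPM in the 30 dpf ovaries, against 667.2 and 163.4 CPM in the 25 dpf ovaries. inha, the alpha subunit of inhibin, was at 39.5, 87.97 and 53.7 CPM in the 30 dpf ovaries, against 0 counts in 25 dpf ovary 1 and 43.05 CPM in 25 dpf ovary 2.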
